A study of Mus musculus with 8 samples.

Results

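Genes that mark blood vessel endothelium or control the growth of vessels were followed in mouse colon. They are the 10 genes Cdh5, Pecam1, Vwf, Vegfa, Kdr, Flt1, Angpt2, Tek, Tie1 and Eng. The rule names each gene and uses no measured value, although earlier results of these data were known when the genes were picked, and they are 10 of the 18262 genes in the deposited expression table. All 10 had a row in the table, and all 10 passed the filter on low values (a level of 1 TPM, transcripts scaled by length and library total, or more in 4 or more libraries).

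The samples were bulk colon tissue of wild-type mice, profiled by poly(A)-selected RNA sequencing. Dextran sulfate sodium (DSS) is an agent given to mice to injure the colon lining and produce colitis. Of the 8 libraries, 4 came from mice given DSS and ganoderic acid A (GAA, a triterpenoid of Ganoderma mushrooms) at 20 mg/kg (DSS + GAA replicates 1, 2, 4 and 5), and 4 came from mice given DSS without GAA (DSS replicates 1, 2, 4 and 5). The study asked how GAA changes colitis, with the receptor RORA and IL-17 signalling as its stated route. Every library came from a mouse given DSS, so no undamaged colon stands beside them. The treatment field of the DSS + GAA libraries reads 20, 21, 22 and 23 mg/kg, whereas the titles and the protocol give 20 mg/kg, and the libraries were kept as 1 group. The labels used here give no strain, age or sex. Nor do they say whether the libraries come from separate animals. The p-values therefore reflect only how far these libraries spread, which may be technical.

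Endothelial cells line all vessels and hold together through VE-cadherin (Cdh5) and PECAM-1 (Pecam1) at their contacts. VEGF-A acts on the receptor VEGFR-2 (Kdr) to drive endothelial division, migration and permeability, while VEGFR-1 (Flt1) binds the same ligand tightly and, in its soluble form, limits how much reaches VEGFR-2. Angiopoietin-1 activates the receptor TIE2 (Tek) and keeps vessels quiet and tight, and angiopoietin-2 (Angpt2), which activated endothelium itself releases, can antagonise it and loosen vessels in inflammation. In the inflamed colon, new and leaky vessels are a known part of the tissue response.

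Of the 10 genes, 7 fell in DSS + GAA colon and 0 rose. Angpt2 had the largest fall of the 10, with a mean 8.77-fold lower in DSS + GAA than in DSS libraries, followed by Flt1 (3.78-fold lower) and Cdh5 (3.03-fold lower). The Angpt2 ratio rests in part on the high DSS replicate 1, without which it was 5.19-fold. Tie1, Pecam1, Eng and Kdr had means 2.05-fold to 2.22-fold lower. Vwf, Vegfa and Tek did not pass the test. The median log2 fold change of the 10 genes was -1.08 on the log2(TPM + 1) scale, where the median of all 14217 tested genes was -0.25. Lower levels in DSS + GAA were common in this table: 28.2% of tested genes passed in that direction and 5.96% in the other (limma, Benjamini-Hochberg adjusted p under 0.05 over all tested genes). The 10 log2 fold changes were all negative. In bulk tissue, fewer endothelial cells and less RNA of these genes per cell cannot be told apart.

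The count of falling genes depended on the scaling between libraries and on single libraries. TPM values sum to 1000000 in every library, so a rise of abundant transcripts lowers the rest. After trimmed mean (TMM) scaling 3 of the 10 genes were lower, where 12.1% of all tested genes were. The count was also 3 after quantile normalization (11.3% of all genes) and after median centring (9.20%). The 3 genes were Cdh5, Flt1 and Angpt2 in each case. The count was 2 when DSS replicate 1 was left out, 3 when DSS + GAA replicate 2, 4 or 5 or DSS replicate 4 was, and 4 when DSS replicate 2 was. Without DSS + GAA replicate 1 the count was 8. The number of lower genes over the whole table had its extremes in the same fits. It was 1676 of 13956 tested genes without DSS replicate 1. Without DSS + GAA replicate 1 it was 4435 of 14103, and with all libraries 4006 of 14217. Counts given below for lists with a library left out stand against this moving background.

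**Figure D1:**
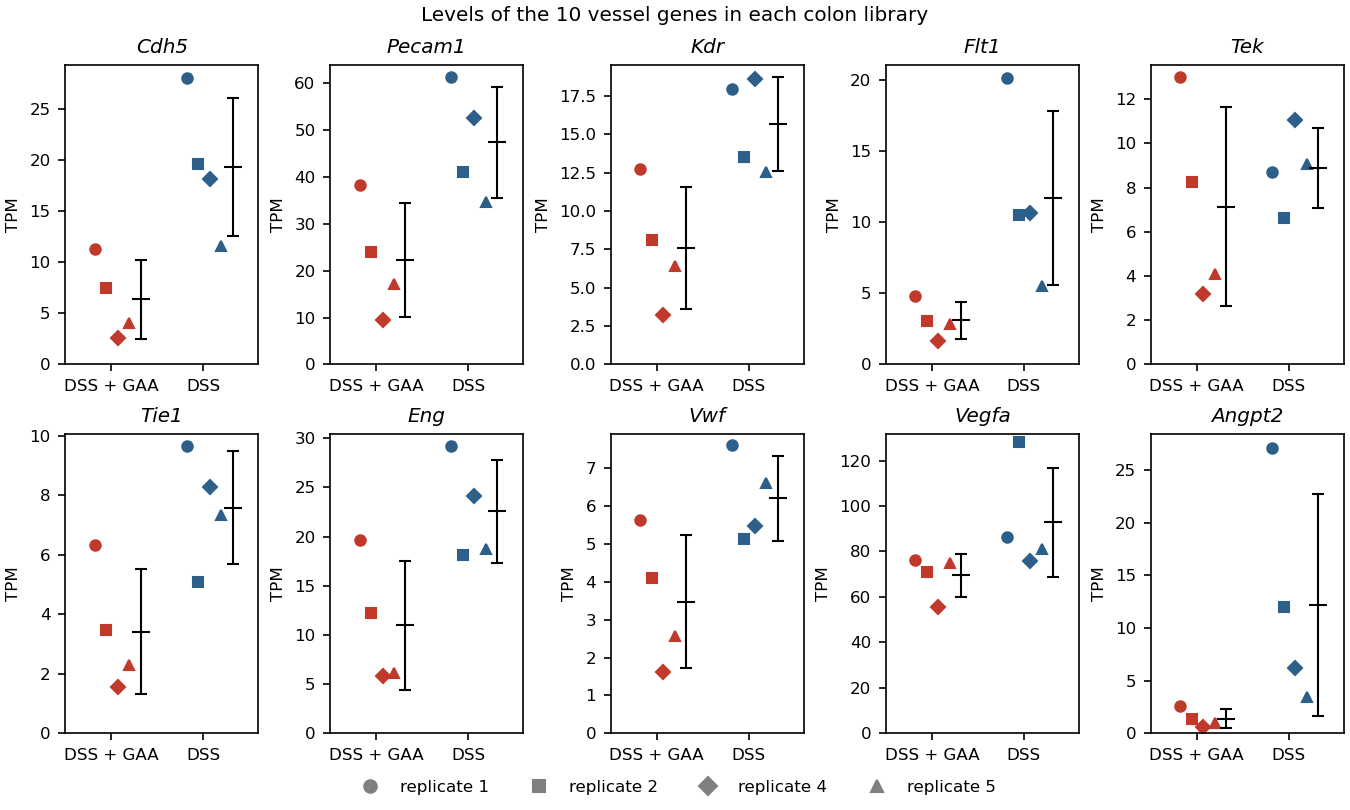
TPM of each of the 10 genes (one panel each, y axis from 0) in the 4 DSS + GAA libraries (red, left) and the 4 DSS libraries (blue, right). Symbols give the replicate number and black bars the mean ± SD of 4 libraries. The groups are separate for Cdh5, Flt1 and Angpt2, and DSS + GAA replicate 1 is the highest of its group in all 10 panels.

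Promoter sequence was at hand for 6 of the 10 genes (Eng, Flt1, Kdr, Tek, Tie1 and Vegfa). Those of both VEGF receptors, of Tek and of Eng are shown, as examples of receptors that fell and of one that did not pass. The windows of Tie1, which reaches into the annotated gene, and of Vegfa are given by their counts. Vegfa has 1 window before the annotated gene and 1 that lies wholly inside it. Each is the 250 bases before the RefSeq start site on the GRCm38.p6 build, written in the direction of the gene. Flt1 is at chr5:147726012-147726261 (minus strand), Kdr at chr5:75978456-75978705 (minus), Tek at chr4:94739039-94739288 (plus) and Eng at chr2:32646345-32646594 (plus). Capitals mark GGAA or its reverse complement TTCC, the core that ETS-family factors such as ERG and FLI1 bind in endothelial genes.
Flt1 promoter: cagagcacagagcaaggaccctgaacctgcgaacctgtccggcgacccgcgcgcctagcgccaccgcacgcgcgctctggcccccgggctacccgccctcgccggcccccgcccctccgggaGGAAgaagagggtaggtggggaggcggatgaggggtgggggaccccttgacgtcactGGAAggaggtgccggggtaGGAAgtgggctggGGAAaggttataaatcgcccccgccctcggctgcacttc
Kdr promoter: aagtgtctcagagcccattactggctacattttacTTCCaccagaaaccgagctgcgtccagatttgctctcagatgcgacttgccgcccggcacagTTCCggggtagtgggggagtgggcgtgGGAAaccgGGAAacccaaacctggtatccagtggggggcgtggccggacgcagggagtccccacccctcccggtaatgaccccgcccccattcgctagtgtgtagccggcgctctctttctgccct
Tek promoter: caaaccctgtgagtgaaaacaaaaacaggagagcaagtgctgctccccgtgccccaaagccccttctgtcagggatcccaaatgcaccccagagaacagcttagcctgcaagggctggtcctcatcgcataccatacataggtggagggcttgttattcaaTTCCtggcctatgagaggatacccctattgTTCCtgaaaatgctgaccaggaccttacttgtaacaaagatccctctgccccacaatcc
Eng promoter: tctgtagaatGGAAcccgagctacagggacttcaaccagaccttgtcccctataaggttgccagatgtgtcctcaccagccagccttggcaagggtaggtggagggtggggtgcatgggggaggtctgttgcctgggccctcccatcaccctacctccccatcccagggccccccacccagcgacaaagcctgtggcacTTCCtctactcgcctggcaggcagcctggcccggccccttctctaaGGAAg
The core occurred 4 times in the Flt1 window, 4 times in that of Kdr, 3 times in that of Eng and 2 times in that of Tek. It occurred 7 times in the window of Tie1, which fell, and 6 and 2 times in both windows of Vegfa, which did not pass, so the counts did not separate the genes that fell. It is a short word, present in 93.4% of the 32851 RefSeq promoters of the same length, with a median of 3 matches. The longer form CCGGAA (either strand, overlapping the core) occurred 1 time in the Kdr window and in none of the other 3 windows, and 12.0% of promoters held it. The Flt1 window alone among the 4 held TATAAA (12.4% of promoters) and the cyclic AMP response element TGACGTCA (1.55%). Neither GATAA nor ACGTG, searched on both strands, was in any of the 4 windows, against 22.6% and 16.6% of promoters. GATAA occurred 1 time in the Vegfa window before the gene. ACGTG occurred 1 time in the Vegfa window inside the gene, so that match does not lie upstream of Vegfa. GC content was 70.4% in the Flt1 window, 61.6% in Kdr, 62.4% in Eng and 51.2% in Tek, with a median of 52.4% over all promoters.

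Among the identity genes, Cdh5 fell and its groups did not overlap. Cdh5 (ENSMUSG00000031871, chr8:104101625-104144511, plus strand), the adhesion protein of endothelial junctions, was at 11.4, 7.48, 2.64 and 4.11 TPM in DSS + GAA replicates 1, 2, 4 and 5, against 28.0, 19.7, 18.2 and 11.6 TPM in DSS replicates 1, 2, 4 and 5, the order used for all further genes. The highest DSS + GAA library lay just under the lowest DSS library. VE-cadherin transcript (Cdh5) averaged 6.40 ± 3.88 TPM in DSS + GAA and 19.4 ± 6.77 TPM in DSS libraries (SD, n = 4 each). The log2 fold change was -1.55 ± 0.39 (SE; limma adjusted p = 0.0166). Without DSS replicate 1 it was -1.36 and no longer passed (adjusted p = 0.0599). The antisense gene Gm29682 overlaps the start of Cdh5 and is not among the genes analysed here, and whether the libraries keep strand is not stated in the labels.

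Pecam1 (ENSMUSG00000020717, chr11:106654217-106750628, minus strand), a junction protein that platelets and leukocytes also carry, was at 38.4, 24.1, 9.56 and 17.2 TPM in DSS + GAA libraries, against 61.3, 41.1, 52.6 and 34.6 TPM in DSS libraries. DSS + GAA replicate 1 lay above DSS replicate 5, and the other 3 DSS + GAA libraries lay below every DSS library. The means were 22.3 ± 12.2 TPM in DSS + GAA and 47.4 ± 11.9 TPM in DSS (SD, n = 4 each). The log2 fold change was -1.18 ± 0.36 (SE; limma adjusted p = 0.0343), and it was between -0.94 and -0.88 with adjusted p of 0.0849 to 0.109 under the other 3 scalings.

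Vwf (ENSMUSG00000001930, chr6:125546774-125686679, plus strand) encodes von Willebrand factor, which endothelium stores in granules and releases to tether platelets. It was at 5.63, 4.11, 1.62 and 2.56 TPM in DSS + GAA libraries, against 7.60, 5.12, 5.47 and 6.62 TPM in DSS libraries. Only DSS + GAA replicate 1 reached into the DSS range. The log2 fold change was -0.76 ± 0.28 (SE; limma adjusted p = 0.0641), with a 95% confidence interval of -1.40 to -0.12 before adjustment. Without DSS + GAA replicate 1 Vwf passed, with a log2 fold change of -0.98 (limma adjusted p = 0.0112).

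Of the VEGF genes, both receptors fell and the ligand did not pass. Vegfa (ENSMUSG00000023951, chr17:46016993-46032369, minus strand) was the most abundant of the 10 genes, at 76.4, 70.8, 55.7 and 75.1 TPM in DSS + GAA libraries, against 86.5, 128, 75.8 and 81.0 TPM in DSS libraries. Both groups lay close together apart from the high DSS replicate 2, and they overlapped by a narrow margin between DSS + GAA replicate 1 and DSS replicate 4. Means were 69.5 ± 9.50 TPM in DSS + GAA and 92.8 ± 23.9 TPM in DSS (SD, n = 4 each). The log2 fold change of Vegfa was -0.39 ± 0.18 (SE; limma adjusted p = 0.121), and its 95% interval of -0.80 to 0.02 does not show that the groups are alike.

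Flt1 (ENSMUSG00000029648, chr5:147561604-147726011, minus strand), the VEGF-A and PlGF receptor VEGFR-1, was at 4.84, 3.07, 1.66 and 2.84 TPM in DSS + GAA libraries, against 20.1, 10.5, 10.7 and 5.54 TPM in DSS libraries. No library of one group reached the other. Flt1 averaged 3.10 ± 1.31 TPM in DSS + GAA and 11.7 ± 6.10 TPM in DSS (SD, n = 4 each), a log2 fold change of -1.56 ± 0.36 (SE; limma adjusted p = 0.0125). It passed without each of the 8 libraries in turn, at log2 fold changes of -1.84 to -1.28.

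Kdr (ENSMUSG00000062960, chr5:75932827-75978458, minus strand), the main signalling receptor for VEGF-A, was at 12.7, 8.13, 3.21 and 6.42 TPM in DSS + GAA libraries, against 18.0, 13.6, 18.6 and 12.5 TPM in DSS libraries. Again DSS + GAA replicate 1 alone reached the lowest DSS library. The means were 7.62 ± 3.98 TPM in DSS + GAA and 15.7 ± 3.07 TPM in DSS (SD, n = 4 each), with a log2 fold change of -1.06 ± 0.32 (SE; limma adjusted p = 0.0342). Under the other 3 scalings Kdr was at -0.83 to -0.67 with adjusted p of 0.106 to 0.129.

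In the angiopoietin system, the ligand of activated endothelium fell and its receptor did not pass. Angpt2 (ENSMUSG00000031465, chr8:18690263-18741562, minus strand) was at 2.64, 1.39, 0.574 and 0.959 TPM in DSS + GAA libraries, against 27.1, 11.9, 6.24 and 3.44 TPM in DSS libraries. Every DSS + GAA library lay below every DSS library, although the DSS libraries themselves differed 7.87-fold from highest to lowest. Means were 1.39 ± 0.895 TPM in DSS + GAA and 12.2 ± 10.5 TPM in DSS (SD, n = 4 each), a log2 fold change of -2.19 ± 0.52 (SE; limma adjusted p = 0.0141), and Angpt2 passed without each of the 8 libraries in turn, at -2.60 to -1.72. Angpt2 lies inside Mcph1 on the opposite strand, a gene of chromosome condensation at 1.35 to 2.70 TPM in DSS + GAA and 1.95 to 3.30 TPM in DSS libraries. Without known strandedness, reads of the pair could be mixed where both are transcribed.

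Tek (ENSMUSG00000006386, chr4:94739289-94874976, plus strand), the angiopoietin receptor TIE2, was at 13.0, 8.26, 3.17 and 4.10 TPM in DSS + GAA libraries, against 8.72, 6.64, 11.1 and 9.08 TPM in DSS libraries. DSS + GAA replicate 1 was the highest of all 8 libraries and DSS + GAA replicate 4 the lowest, so the DSS + GAA range enclosed that of DSS. The log2 fold change was -0.43 ± 0.36 (SE; limma adjusted p = 0.381), with a 95% interval of -1.24 to 0.38. After quantile normalization it was 0.022.

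Tie1 (ENSMUSG00000033191, chr4:118471191-118490061, minus strand), a receptor-like partner of TIE2 without a firmly assigned ligand, was at 6.33, 3.46, 1.54 and 2.31 TPM in DSS + GAA libraries, against 9.64, 5.09, 8.29 and 7.32 TPM in DSS libraries. DSS + GAA replicate 1 lay above DSS replicate 2, and the other 3 DSS + GAA libraries lay below all DSS libraries. Tie1 averaged 3.41 ± 2.10 TPM in DSS + GAA and 7.58 ± 1.91 TPM in DSS (SD, n = 4 each), a log2 fold change of -1.05 ± 0.32 (SE; limma adjusted p = 0.0346), and -0.84 to -0.59 with adjusted p of 0.0963 to 0.135 under the other 3 scalings.

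Eng (ENSMUSG00000026814, chr2:32646595-32682669, plus strand) encodes endoglin, the endothelial co-receptor for BMP9 and BMP10. It was at 19.7, 12.2, 5.79 and 6.16 TPM in DSS + GAA libraries, against 29.2, 18.1, 24.1 and 18.8 TPM in DSS libraries. The groups overlapped through DSS + GAA replicate 1. Means were 11.0 ± 6.52 TPM in DSS + GAA and 22.5 ± 5.18 TPM in DSS (SD, n = 4 each), with a log2 fold change of -1.11 ± 0.35 (SE; limma adjusted p = 0.0369). Under the other 3 scalings Eng was at -0.87 to -0.76 with adjusted p of 0.109 to 0.120. The last bases of Eng overlap the end of Fpgs on the opposite strand, which was at 3.76 to 6.89 TPM in DSS + GAA and 5.96 to 7.82 TPM in DSS libraries.

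Pecam1, Kdr, Tie1 and Eng thus passed as deposited and in none of the other 3 scalings. Each also lost the call when single libraries were left out. Pecam1 and Kdr did so without DSS + GAA replicate 2, 4 or 5 or DSS replicate 1, 2 or 4, where Pecam1 was at -1.27 to -0.85 and Kdr at -1.12 to -0.75. Tie1 lost it without DSS + GAA replicate 2, 4 or 5 or DSS replicate 1, 4 or 5 (-1.09 to -0.82). Eng lost it without any library other than DSS + GAA replicate 1 (-1.21 to -0.89). Their direction was the same in all of these fits.

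**Figure D2:**
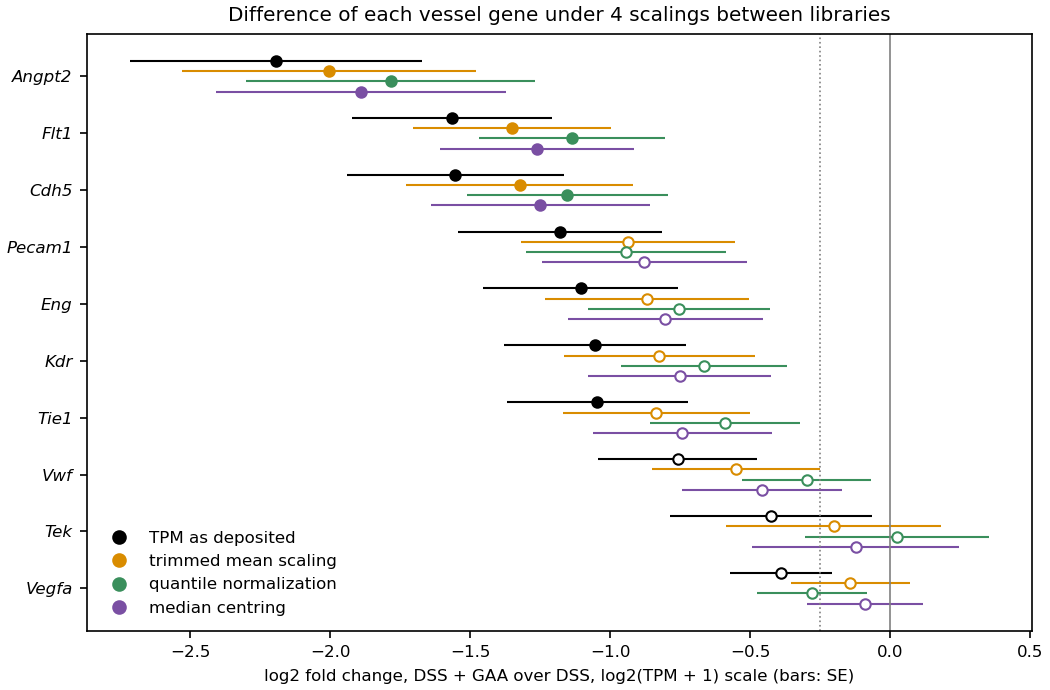
Log2 fold change of each gene (x axis, DSS + GAA over DSS, log2(TPM + 1) scale, bars are SE) as deposited and under 3 other scalings between libraries, with filled points for adjusted p under 0.05 and open points otherwise. The dotted line is the median of all tested genes as deposited (-0.25). Angpt2, Flt1 and Cdh5 are filled under all 4, and Tek lies at 0.022 under quantile normalization.

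The log2 fold changes in the authors' deposited table of their own comparison were negative for all 10 genes. The point of no change in their test lay below 0, however. Tek, at -0.31, had a higher false discovery rate there than the epithelial marker Krt18 at 0.014. The shared sign therefore does not show a fall of genes with small values, such as Tek. In the authors' deposited table, Angpt2 had a log2 fold change of -3.13 (false discovery rate 3.10e-16), Flt1 of -1.92 (3.08e-06) and Cdh5 of -1.60 (0.00024). The authors' deposited table also placed Tie1 (-1.15, rate 0.0249) and Pecam1 (-1.09, rate 0.0383) under 0.05, and Kdr (0.0533) and Eng (0.0560) just above it. At a rate under 0.05 it held 16.2% of its 18262 genes as lower in DSS + GAA and 10.3% as higher. Its values come from the same libraries and are no independent measurement.

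Cdh5, Flt1 and Angpt2 were the 3 genes whose groups did not overlap, where 27.6% of all tested genes were lower and 5.31% higher without overlap. The other 7 genes overlapped. In 6 of them (Pecam1, Kdr, Tie1, Eng, Vwf and Vegfa) DSS + GAA replicate 1 alone reached into the DSS range, and for Tek replicate 2 did so as well. The 10 genes ranked the DSS + GAA libraries alike at both ends. Replicate 1 was the highest and replicate 4 the lowest DSS + GAA library for all 10 genes, a pair of extremes shared by 16.6% of tested genes (2362 of 14217). Among DSS libraries replicate 1 was the highest for 7 genes (39.8% of tested genes), replicate 4 for Kdr and Tek, and replicate 2 for Vegfa. The lowest DSS library was replicate 5 for 5 genes, replicate 2 for 4 and replicate 4 for 1.

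The spread within groups also differed between genes. In DSS + GAA, Vegfa varied 1.37-fold from the highest to the lowest library, whereas the other 9 genes varied between 2.91-fold (Flt1) and 4.59-fold (Angpt2). In DSS, 8 of the genes varied between 1.48-fold (Vwf) and 2.42-fold (Cdh5). The exceptions in DSS were Flt1 at 3.64-fold and Angpt2 at 7.87-fold, which are also 2 of the 3 genes with separate groups.

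By level per transcript length (mean TPM), the order in DSS + GAA libraries was Vegfa, Pecam1, Eng, Kdr, Tek, Cdh5, Vwf, Tie1, Flt1 and Angpt2. Vegfa alone was separate from its neighbour in that order, since the ranges of all other neighbours overlapped. In DSS libraries the order was Vegfa, Pecam1, Eng, Cdh5, Kdr, Angpt2, Flt1, Tek, Tie1 and Vwf, and there the ranges of Vegfa and Pecam1, and of Pecam1 and Eng, did not overlap. Angpt2 stood at rank 10 in DSS + GAA and at rank 6 in DSS.

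Ratios between pairs of genes within a library cancel the scaling between libraries apart from the pseudocount, and 8 were compared. Each was tested by an exact permutation of the library labels (two-sided, 70 assignments, smallest possible p = 0.0286), with Benjamini-Hochberg adjustment over the 8. None passed after adjustment, and 4 reached the smallest p (adjusted p = 0.0571), with no overlap between the groups. The log2 ratio of Angpt2 over its receptor Tek was -1.67 ± 0.32 in DSS + GAA and 0.09 ± 1.27 in DSS libraries (SD, n = 4 each). The 4 DSS + GAA libraries lay between -1.96 and -1.38, and the DSS libraries between -1.18 and 1.53. Tie1 over Tek was -0.83 ± 0.20 in DSS + GAA and -0.21 ± 0.23 in DSS libraries, again with every DSS + GAA library lower. Kdr over Cdh5 was 0.25 ± 0.20 in DSS + GAA and -0.25 ± 0.37 in DSS libraries, and Pecam1 over Cdh5 was 1.65 ± 0.13 in DSS + GAA and 1.28 ± 0.25 in DSS libraries, both with every DSS + GAA library higher.

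The other 4 ratios overlapped between groups. Vwf over Cdh5 was -0.66 ± 0.20 in DSS + GAA and -1.45 ± 0.49 in DSS libraries (SD, n = 4 each; exact permutation p = 0.0857, adjusted p = 0.137). Flt1 over Kdr was -1.00 ± 0.26 in DSS + GAA and -0.49 ± 0.52 in DSS libraries (exact permutation p = 0.143, adjusted p = 0.163). Vegfa over its receptor Kdr was 3.15 ± 0.54 in DSS + GAA and 2.48 ± 0.52 in DSS libraries (exact permutation p = 0.143, adjusted p = 0.163). Cdh5 over the pericyte receptor Pdgfrb was -0.37 ± 0.20 in DSS + GAA and -0.48 ± 0.18 in DSS libraries, a difference of 0.10 (exact permutation p = 0.400, adjusted p = 0.400).

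**Figure D3:**
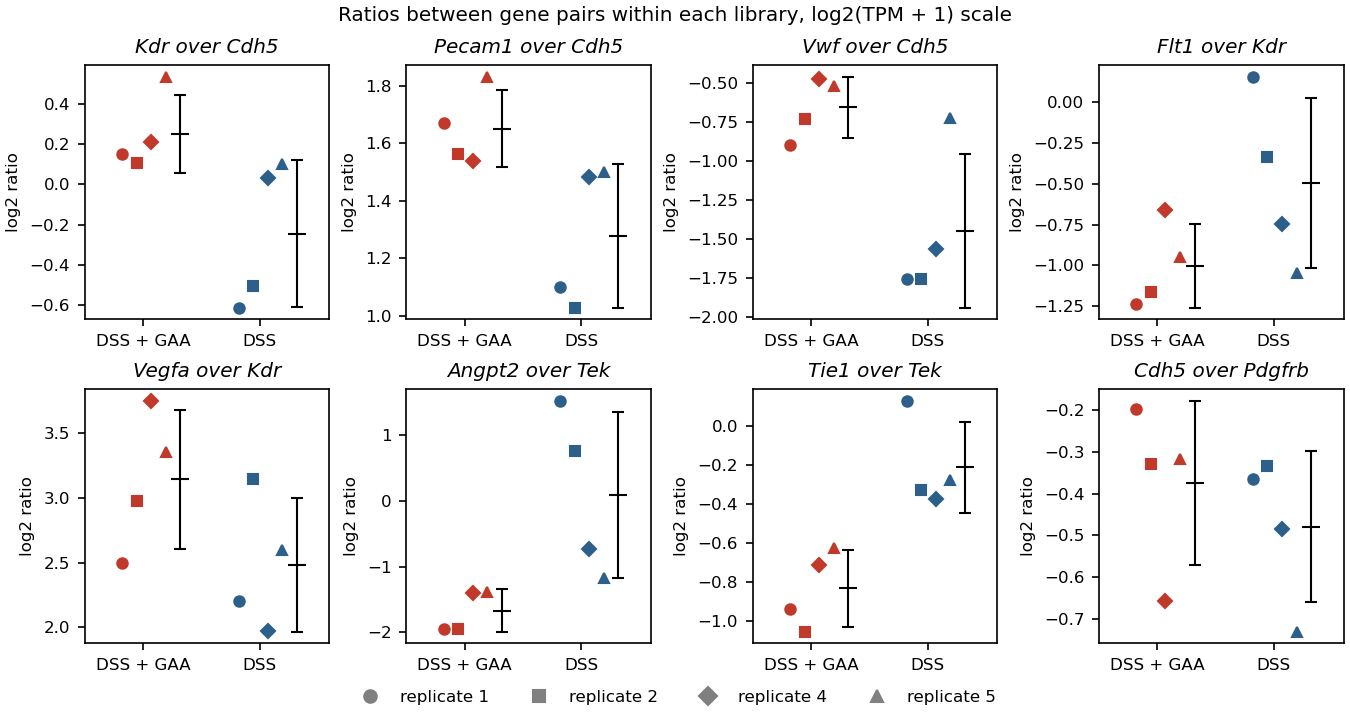
Log2 ratio of each of the 8 gene pairs within each library (y axis, log2(TPM + 1) scale), DSS + GAA in red on the left and DSS in blue on the right of each panel, with the mean ± SD of 4 libraries in black. Angpt2 over Tek and Tie1 over Tek are lower in every DSS + GAA library, and Kdr over Cdh5 and Pecam1 over Cdh5 are higher in every one.

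Profiles over the 8 libraries were compared by the root mean square difference of log2(TPM + 1) after centring each gene. As a description over 8 libraries that share their groups, Pecam1 and Kdr were the closest pair (0.124), followed by Tie1 and Eng (0.162), while Tek and Angpt2 were the farthest apart (1.19). Among 13131 genes with a mean of at least 2 TPM, the genes nearest to Cdh5 were Plod2 (0.127), Cyyr1 (0.148), Emcn (0.157), Hhipl1 (0.160) and Fbln2 (0.164). Among those nearest to Vegfa were Ell (0.104), Midn (0.119), Phf13 (0.134) and Slc45a3 (0.139). No vessel gene of the 10 was among the nearest of Vegfa, and its closest member, Vwf, was at 0.443.

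Across the 11 lists of other vessel genes, 56 of 102 tested genes fell, 2 rose and 44 did not pass, with a median log2 fold change of -0.86 (-0.25 over all tested genes, of which 28.2% fell). The pair that rose was Unc5b and Efnb2. The split moved with the scaling: 28 fell and 4 rose after TMM scaling, 24 and 4 after quantile normalization, and 20 and 4 after median centring, the risers then being Unc5b, Efnb2, Dll4 and Smad7 (the last chosen after its values were seen, like Unc5b). As backgrounds, 12.1%, 11.3% and 9.20% of all tested genes were lower under these 3 scalings, and 12.4%, 11.8% and 15.2% were higher. The same backgrounds hold for each list below. With DSS replicate 1 left out 22 fell, with DSS + GAA replicate 4 left out 36, and with DSS replicate 4 left out 37. The count of risers was 1 without DSS + GAA replicate 2 or DSS replicate 1, 2 or 5. Genes named below passed in every alternative tried unless stated otherwise. Genes named only because they met the filter through the DSS libraries alone are apart from this.

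Of the 7 other VEGF ligands, receptors and co-receptors, 3 fell and 4 did not pass (median log2 fold change -0.88). Pgf, the placental growth factor that binds Flt1 and not Kdr, was at 2.59, 2.02, 0.588 and 0.712 TPM in DSS + GAA libraries, against 11.3, 5.20, 5.21 and 4.22 TPM in DSS libraries. The groups were separate, and the log2 fold change was -1.60 ± 0.35 (SE; limma adjusted p = 0.0108). Nrp1 and Nrp2, neuropilin co-receptors, fell as deposited (-0.94 and -1.26; limma adjusted p = 0.0328 and 0.0190) but not under the other 3 scalings. Vegfb, a second ligand of Flt1, was at 9.35 to 11.6 TPM in DSS + GAA and 9.78 to 12.7 TPM in DSS libraries and did not pass (-0.08; limma adjusted p = 0.648). The list held 1 falling gene under each other scaling, and 1 without DSS replicate 1 or DSS replicate 4. The call of Nrp2 was lost in both of these fits, and that of Nrp1 also without DSS + GAA replicate 2, 4 or 5 or DSS replicate 5.

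Of 6 tested genes of the angiopoietin and TIE list, 5 fell and 1 did not pass (median -1.13), while Angpt4 was too low to test. The list mixes partners of the TIE receptors with angiopoietin-like genes such as Angptl4. Angpt1, the activating ligand of Tek, averaged 4.43 ± 2.73 TPM in DSS + GAA and 11.9 ± 5.65 TPM in DSS (SD, n = 4 each; log2 fold change -1.29, limma adjusted p = 0.0298). It did not pass under the other 3 scalings, nor without DSS + GAA replicate 2, 4 or 5 or DSS replicate 1 or 4. Angptl4, an angiopoietin-like inhibitor of lipoprotein lipase, was at 8.99, 6.13, 1.89 and 1.88 TPM in DSS + GAA libraries, against 30.5, 22.3, 27.9 and 13.9 TPM in DSS libraries. Its groups were separate, with a log2 fold change of -2.27 ± 0.43 (SE; limma adjusted p = 0.00752). The list held 1 falling gene under each other scaling, which was Angptl4 each time. With DSS replicate 1 left out 1 gene of the list fell, with DSS + GAA replicate 4 or 5 left out 2, and with DSS + GAA replicate 2 or DSS replicate 4 or 5 left out 3.

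Of 18 further endothelial surface and junction genes, 10 fell and 8 did not pass (median -0.92), with 6, 4 and 4 falling under TMM scaling, quantile normalization and median centring. None of the 18 was at 0 in any library. Their summed level was 136 to 327 TPM in DSS + GAA and 320 to 480 TPM in DSS libraries, and only DSS + GAA replicate 1 reached the lowest DSS library. Emcn, the sialomucin of capillary and venous endothelium, averaged 6.32 ± 3.47 TPM in DSS + GAA and 22.3 ± 8.88 TPM in DSS (SD, n = 4 each; log2 fold change -1.73, limma adjusted p = 0.0110). Rasip1, a regulator of vessel lumen formation, averaged 3.60 ± 1.76 TPM in DSS + GAA and 10.4 ± 1.75 TPM in DSS (SD, n = 4 each; -1.38, limma adjusted p = 0.00746). In this list 2 genes fell with DSS replicate 1 left out and 16 with DSS + GAA replicate 1 left out.

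Among 15 endothelial transcription factors, 6 fell and 9 did not pass (median -0.47), where 28.2% of all tested genes fell. Under the other scalings 2, 2 and 1 fell in the same order. Those shares are near the 12.1%, 11.3% and 9.20% of all tested genes that fell. Klf2, the factor that endothelium raises under steady blood flow, was at 17.9, 11.1, 6.31 and 6.86 TPM in DSS + GAA libraries, against 65.2, 68.9, 31.9 and 25.6 TPM in DSS libraries (log2 fold change -2.07 ± 0.39 SE, limma adjusted p = 0.00751). Several factors of this list are also made by leukocytes. Of these factors 2 fell without DSS + GAA replicate 4, DSS replicate 1 or DSS replicate 4, and 3 without DSS + GAA replicate 2 or 5 or DSS replicate 2.

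Of 10 BMP and TGF-beta genes around endoglin, 3 fell and 7 did not pass (median -0.63), a share near the 28.2% of all tested genes that fell, with 2 falling and 1 rising under each other scaling. Bmpr2, the type II receptor that endoglin assists, was at 20.9 ± 3.42 TPM in DSS + GAA and 42.8 ± 10.1 TPM in DSS (SD, n = 4 each; log2 fold change -0.99, limma adjusted p = 0.00650). Bmper, a secreted BMP-binding protein, averaged 1.24 ± 0.701 TPM in DSS + GAA and 5.25 ± 2.40 TPM in DSS (SD, n = 4 each; -1.47, limma adjusted p = 0.00829). Acvrl1, the type I receptor ALK1 that pairs with endoglin, averaged 9.89 ± 4.37 TPM in DSS + GAA and 15.5 ± 2.22 TPM in DSS and did not pass (-0.68, limma adjusted p = 0.0763). Without DSS + GAA replicate 1 the list had 6 falling genes and 1 rising gene.

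Of 9 Notch genes of vessels, 4 fell and 5 did not pass (median -0.59). Jag1, a Notch ligand with pro-angiogenic roles in mouse, averaged 8.08 ± 1.32 TPM in DSS + GAA and 15.6 ± 2.90 TPM in DSS (SD, n = 4 each; log2 fold change -0.87, limma adjusted p = 0.00769). Dll4, the Notch ligand of tip cells and arteries, was at 8.89, 8.03, 5.90 and 6.51 TPM in DSS + GAA libraries, against 5.60, 4.19, 4.78 and 5.36 TPM in DSS libraries. Every DSS + GAA library was above every DSS library, the opposite side from Jag1. Dll4 did not pass as deposited (log2 fold change 0.47 ± 0.17 SE, limma adjusted p = 0.0559) and was higher under TMM scaling (limma adjusted p = 0.0228), quantile normalization (0.00729) and median centring (0.0130). Falling counts under these scalings were 2, 1 and 1, and the count was 2 without DSS + GAA replicate 2 or 4 or DSS replicate 1.

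Genes listed for tip cells, of sprouting vessel ends, fell in 7 of 9 tested cases (Aplnr was too low to test), with 1 rise (Unc5b) and a median of -1.60. Part of the fallers are basement membrane genes such as Col4a1 and Col4a2, which are not confined to tip cells. Col4a1 and Col4a2, collagens of the basement membrane, were at 67.0 ± 46.2 and 35.6 ± 23.8 TPM in DSS + GAA and at 267 ± 108 and 129 ± 52.1 TPM in DSS (SD, n = 4 each; log2 fold changes -2.13 and -1.97, limma adjusted p = 0.0118 and 0.0123). Cxcr4, a chemokine receptor of tip cells and leukocytes, was at 8.37 ± 5.62 TPM in DSS + GAA and 26.9 ± 5.46 TPM in DSS (SD, n = 4 each; -1.74, limma adjusted p = 0.0102). Esm1 averaged 1.47 TPM in DSS + GAA and 12.5 TPM in DSS (-2.00, limma adjusted p = 0.0334). The call of Esm1 was lost under the other 3 scalings and with a pseudocount of 5. It was also lost without DSS + GAA replicate 2, 4 or 5 or DSS replicate 1, 2 or 4. Unc5b, a netrin receptor, was at 20.7 to 30.0 TPM in DSS + GAA and 14.4 to 20.2 TPM in DSS libraries (0.49, limma adjusted p = 0.0380). It lost the call with the replicate number as a block and without DSS + GAA replicate 1 or 2 or DSS replicate 1, 2 or 5, where 0 genes of the list rose. The falling count was 4, 4 and 3 under TMM scaling, quantile normalization and median centring, and 3 without DSS replicate 1.

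Arterial genes showed 1 fall, 1 rise and 6 that did not pass, with a median of -0.59. The rise was Efnb2, the arterial ephrin ligand, which colon epithelium also expresses. It was at 107, 106, 111 and 122 TPM in DSS + GAA libraries, against 61.7, 57.0, 86.0 and 65.3 TPM in DSS libraries (log2 fold change 0.73 ± 0.14 SE, limma adjusted p = 0.00754). Gja4, the gap junction protein connexin 37 of arterial endothelium, was at 1.40 to 3.24 TPM in DSS + GAA and 1.76 to 3.52 TPM in DSS libraries (-0.09, limma adjusted p = 0.799). Fbln5, the gene that fell (-1.39, limma adjusted p = 0.0177), did not pass under the other 3 scalings or without DSS replicate 1, and the list then had 0 falling genes. Without DSS + GAA replicate 1 there were 5.

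Venous and adhesion genes fell in 5 of 7 tested cases (median -1.37), with Sele too low to test. Selp, the P-selectin that activated venules and platelets display to capture leukocytes, was at 7.26, 3.85, 0.876 and 1.47 TPM in DSS + GAA libraries, against 42.0, 26.9, 25.2 and 14.7 TPM in DSS libraries. The groups were wide apart, with a log2 fold change of -2.84 ± 0.47 (SE; limma adjusted p = 0.00581). Ackr1, the atypical chemokine receptor of venules, averaged 7.78 ± 5.00 TPM in DSS + GAA and 21.7 ± 4.77 TPM in DSS (SD, n = 4 each; -1.51, limma adjusted p = 0.0122). The list held 4, 3 and 3 falling genes under the other scalings. Without DSS replicate 1 or 2 it held 3.

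Capillary genes fell in 8 of 8 cases (median -1.50), and in 5, 5 and 4 under TMM scaling, quantile normalization and median centring. Their summed level was 166 to 258 TPM in DSS + GAA and 572 to 876 TPM in DSS libraries, with no overlap. Fabp4 was the largest part of that sum in every DSS library. Fabp4, a fatty acid carrier of capillary endothelium and of fat cells, was at 89.9, 55.6, 26.6 and 57.7 TPM in DSS + GAA libraries, against 476, 512, 346 and 292 TPM in DSS libraries (log2 fold change -2.89 ± 0.34 SE, limma adjusted p = 0.00431). Rgcc was at 1.07 to 3.68 TPM in DSS + GAA and 15.2 to 34.4 TPM in DSS libraries (-2.77, limma adjusted p = 0.00460). Calcrl, the adrenomedullin receptor, averaged 14.9 ± 9.29 TPM in DSS + GAA and 54.3 ± 11.6 TPM in DSS (SD, n = 4 each; -1.96, limma adjusted p = 0.00712). Gpihbp1 fell as deposited (-1.31, limma adjusted p = 0.0231). It did not pass under the other 3 scalings, nor without DSS + GAA replicate 2 or DSS replicate 1 or 2.

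Lymphatic endothelial markers fell in 5 of 7 cases (median -1.04), and in 1, 1 and 0 under the other scalings. Prox1, the factor that specifies lymphatic fate, was at 0.602 to 1.84 TPM in DSS + GAA and 2.03 to 3.40 TPM in DSS libraries (log2 fold change -0.80, limma adjusted p = 0.0187). It did not pass under the 3 other scalings or without DSS replicate 1. The summed lymphatic level was 98.5 to 458 TPM in DSS + GAA and 351 to 524 TPM in DSS libraries. Of the markers 0 fell with DSS replicate 1 left out, and 2 with DSS + GAA replicate 4 or 5 or DSS replicate 4 left out.

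**Figure D4:**
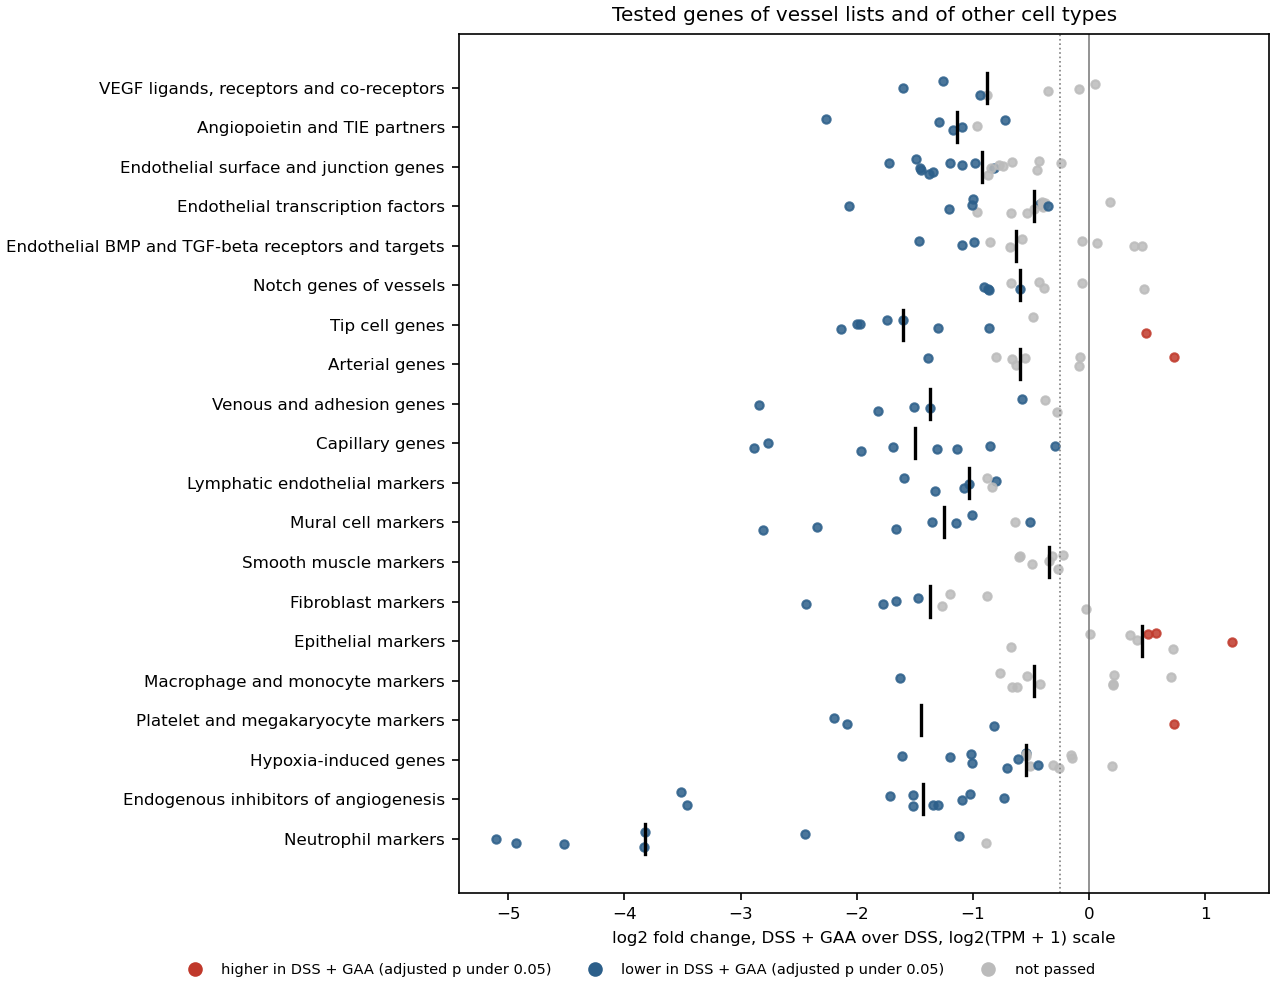
Log2 fold change (x axis, DSS + GAA over DSS, log2(TPM + 1) scale) of every tested gene of the vessel lists and of markers of other cell types and states, one row per list; the black bar is the list's median and the dotted line the median of all tested genes (-0.25). Capillary genes lie left of 0 with a median of -1.50, whereas epithelial markers have a median of 0.46.

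Markers of other cells in the colon wall moved with the same libraries. Mural cells wrap small vessels, and 7 of their 8 tested markers fell, or 3, 5 and 3 under TMM scaling, quantile normalization and median centring. Notch3 met the filter through the DSS libraries alone, so its direction was fixed. It did not pass under the other 3 scalings (limma adjusted p of 0.110 to 0.637). Of the other 7 markers 6 fell. The summed mural level was 123 to 397 TPM in DSS + GAA and 537 to 924 TPM in DSS libraries, and Higd1b, too low to test, was listed at 0 in 2 DSS + GAA libraries. Pdgfrb, the pericyte receptor for PDGF-B, was at 13.2, 9.66, 4.73 and 5.36 TPM in DSS + GAA libraries, against 36.4, 25.0, 25.8 and 19.9 TPM in DSS libraries (log2 fold change -1.66 ± 0.30 SE, limma adjusted p = 0.00677). Kcnj8 and Abcc9, subunits of the vascular potassium channel, averaged 25.1 ± 18.6 and 27.2 ± 15.3 TPM in DSS + GAA and 162 ± 74.8 and 134 ± 50.0 TPM in DSS (SD, n = 4 each; -2.81 and -2.34, limma adjusted p = 0.00664 and 0.00573). Of the mural markers 3 fell with DSS replicate 1 left out, and 4 with DSS + GAA replicate 4 or 5 or DSS replicate 4 left out.

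Fibroblast markers fell in 4 of 8 cases (median -1.37), with 3, 4 and 3 under the other scalings and 2 without DSS replicate 1. Their summed level was 363 to 1193 TPM in DSS + GAA and 1603 to 4451 TPM in DSS libraries, and Dcn, a matrix proteoglycan, averaged 331 ± 181 TPM in DSS + GAA and 1789 ± 1032 TPM in DSS (SD, n = 4 each; log2 fold change -2.44, limma adjusted p = 0.00655). Of 7 smooth muscle markers 0 passed by limma, and 0 had an unadjusted p under 0.05 (median -0.34), and their sums of 1530 to 3743 TPM in DSS + GAA and 1891 to 5216 TPM in DSS libraries overlapped. Acta2, smooth muscle actin, was at 612 ± 277 TPM in DSS + GAA and 906 ± 320 TPM in DSS (SD, n = 4 each; -0.61, limma adjusted p = 0.198). Without DSS + GAA replicate 1, 1 smooth muscle marker fell.

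Epithelial markers rose in 3 of 8 cases and 5 did not pass (median 0.46), with 5, 1 and 6 rising under TMM scaling, quantile normalization and median centring. Their sum was 12251 to 14849 TPM in DSS + GAA and 7902 to 10355 TPM in DSS libraries. Vil1, villin of the enterocyte brush border, was at 992 ± 151 TPM in DSS + GAA and 429 ± 113 TPM in DSS (SD, n = 4 each; log2 fold change 1.23, limma adjusted p = 0.00554). The rising count was 1 without DSS + GAA replicate 2 or 4 or DSS replicate 1, and 1 epithelial marker fell without DSS + GAA replicate 5. Of 10 macrophage and monocyte markers, 1 fell and 9 did not pass (median -0.48), and without DSS + GAA replicate 1 there were 4. The faller was Mrc1, the mannose receptor, at 16.4 ± 9.28 TPM in DSS + GAA and 48.6 ± 12.5 TPM in DSS (SD, n = 4 each; -1.62, limma adjusted p = 0.00927). The summed macrophage level was 2710, 1697, 700 and 620 TPM in DSS + GAA libraries, against 1170, 1198, 1513 and 1141 TPM in DSS libraries.

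Ngp and Camp met the filter through the DSS libraries alone, and 5 of the other 6 neutrophil markers fell. The summed level of all 8 markers, with Ngp and Camp included, was 137 to 378 TPM in DSS + GAA and 2091 to 6416 TPM in DSS libraries. The mural, fibroblast, smooth muscle, macrophage, lymphatic and endothelial surface sums were highest in replicate 1 among the DSS + GAA libraries, as the 10 vessel genes were, and so was the epithelial sum. The sums of the endothelial transcription factors (659 TPM) and of the BMP list (270 TPM) were lowest there. So were their largest members, Klf4 (307 TPM there, 577 TPM in replicate 5) and Id1 (95.8 and 427 TPM). Each factor other than Klf4, Hhex and Epas1 was highest in replicate 1 among the DSS + GAA libraries. In the BMP list Acvrl1, Bmpr2, Tgfbr2, Bmp6, Bmper and Smad9 were highest there, and Smad6, Smad7, Id1 and Id3 were not. The summed level of the 10 genes was 191, 143, 85.5 and 122 TPM in DSS + GAA libraries, against 296, 260, 231 and 191 TPM in DSS libraries. Vegfa, which did not pass, was the largest part of each sum. It gave 76.4, 70.8, 55.7 and 75.1 TPM in DSS + GAA and 86.5, 128, 75.8 and 81.0 TPM in DSS libraries. The part of these other cell types in the levels of the vessel genes was not tested.

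**Figure D5:**
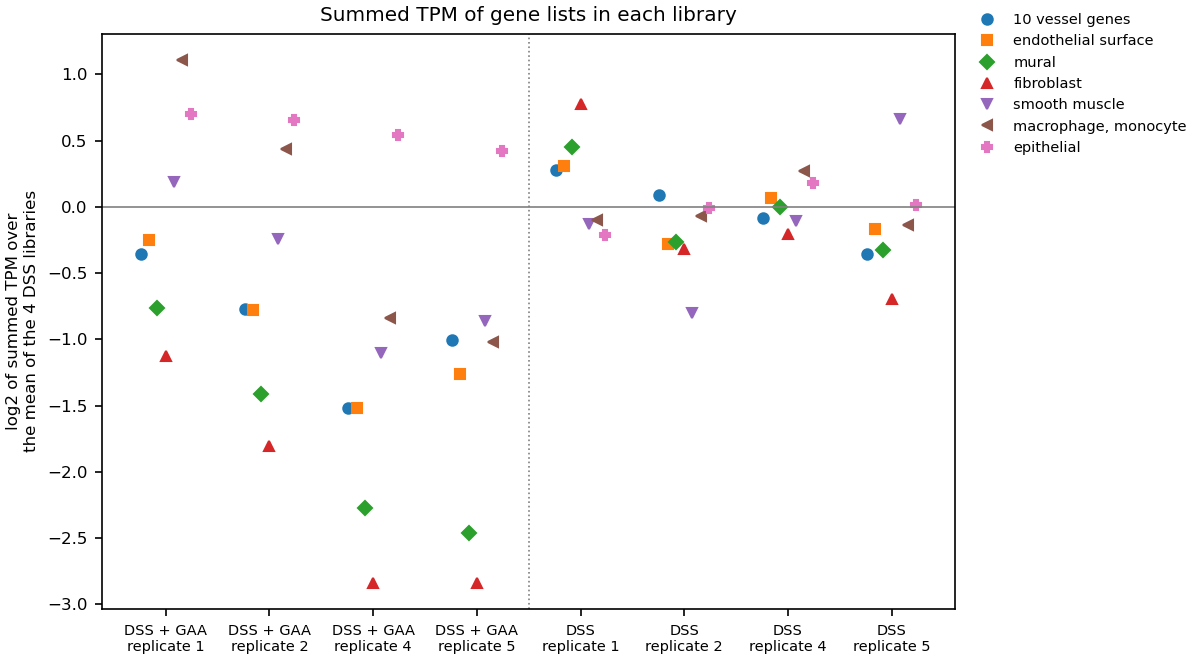
Log2 of the summed TPM of 7 gene lists in each library over the mean of the 4 DSS libraries (y axis), with the DSS + GAA libraries left and the DSS libraries right of the dotted line; each symbol is one list. In DSS + GAA the vessel, mural and fibroblast sums are below 0 and the epithelial sum above 0 in all 4 libraries, while smooth muscle and macrophage sums lie on both sides. Vegfa is the largest part of the sum of the 10 vessel genes.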

How the data were processed

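The authors deposited 1 table of TPM values for 18262 genes in 8 libraries, beside their own log2 fold changes, p-values and false discovery rates (q-values) per gene. Colon RNA was, per the labels' protocols, prepared in TRIzol, treated with DNase I, selected with oligo(dT) beads and sequenced in pairs on an MGI-T7. Per the submitters' processing notes, Trimmomatic, HISAT2, Bowtie2, featureCounts, Subread, SAMtools, GATK and edgeR were used with the mm10 build, and their versions and settings are not given in the sources used here. The deposited TPM values sum to 1000000 in each library, so depth is unknown and no counts, intervals of counting or detection limits were computed. Trimmed mean (TMM) factors of the table were 0.873 to 0.953 in DSS + GAA and 1.01 to 1.18 in DSS libraries.

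Genes with at least 1 TPM in at least 4 of 8 libraries (14217, with 4045 left out) were tested on log2(TPM + 1) with limma 3.58.1 in R 4.3.3 (variance trend, robust empirical Bayes, Benjamini-Hochberg over all tested genes, threshold 0.05). The pseudocount of 1 understates changes of low genes. The script was tested on simulated data. Alternatives were pseudocounts of 0.1 and 5, no filter, a filter at 5 TPM, TMM scaling (factors computed on the TPM table), quantile normalization, median centring, no trend or robust fit, array weights, a replicate block and leaving out each library. The replicate numbers showed no clear pairing: the correlations of same-numbered deviations were 0.18, -0.109, 0.146 and -0.0302. Libraries of unlike number were not compared, so pairing is not excluded. The members and lists were chosen with earlier results of these data known. From each list the first gene and the 3 with the smallest p could be named. Not all of these are described. Those left out include genes that lost the call in some alternatives, such as Ptprb, Nos3, Gata2, Bmp6 and Hey2. One of the genes nearest to Vegfa is not reported here. Gene positions come from GENCODE vM21 (GRCm38, the assembly behind mm10), which held 18185 of the table's genes, and promoters from RefSeq (GRCm38.p6).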

Additional observations from a re-analysis of the deposited data

How the results depend on the processing

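As deposited 847 genes were higher and 4006 lower. The counts were 1759 higher and 1715 lower under TMM scaling, 1677 and 1601 under quantile normalization, and 2165 and 1308 under median centring, and leaving out 1 library gave 361 to 1277 higher and 1676 to 4435 lower. The median log2 fold change of all genes, -0.25 as deposited, was -0.02, 0.02 and 0.05 under the same 3 scalings. Of the 10 genes 3 fell under each of them, and 2 to 8 with 1 library left out. Under TMM scaling Pecam1 (-0.94), Kdr (-0.83), Tie1 (-0.84) and Eng (-0.87) no longer passed. Under quantile normalization they were at -0.94, -0.67, -0.59 and -0.76, and under median centring at -0.88, -0.75, -0.74 and -0.80. With 1 library left out, the log2 fold changes lay at -1.85 to -1.26 for Cdh5, -1.49 to -0.85 for Pecam1, -1.32 to -0.75 for Kdr, -1.33 to -0.82 for Tie1, -1.42 to -0.89 for Eng and -0.98 to -0.53 for Vwf. Tek turned to 0.022 under quantile normalization. Vwf passed with array weights (-0.79), whose estimate stopped before convergence, and with the replicate block (-0.76). The block, which uses numbers that showed no clear pairing, also left 1 riser in the vessel lists and changed no other call among the 10 genes. The vessel lists had 28, 24 and 20 fallers and 4, 4 and 4 risers under TMM scaling, quantile normalization and median centring, and 22 to 75 fallers and 1 to 2 risers with 1 library left out. Vegfb turned to 0.15, 0.28 and 0.22, and Gja4 to 0.091, 0.36 and 0.22, under the 3 scalings. With 1 library left out Gja4 lay between -0.21 and 0.062, above 0 without DSS + GAA replicate 4 (0.062) or DSS replicate 4 (0.039). With array weights, falling counts were 5 of the VEGF list (3 as deposited), 17 of the surface list (10), 11 of the transcription factors (6), 6 of the BMP list (3) and 5 of the arterial list (1), and 5 epithelial markers rose (3). Array weights also raised the counts of lower and of higher genes over all tested genes, so an increase was not confined to these lists. With the block, 2 arterial genes fell, 1 epithelial marker rose and 0 tip cell genes rose. At the 5 TPM filter, 4 tip cell genes (7), 3 lymphatic markers (5) and 1 platelet gene (3) fell, and with no filter 5 platelet genes did. Without trend and robust fit, 2 arterial genes fell and 1 Notch gene rose. Angpt2 was not tested at the 5 TPM filter. With a pseudocount of 5 no ratio reached an adjusted p under 0.152, and all 8 ratios kept their sign in every alternative. The cause of these changes was not tested. TPM carries no depth, so the precision of low genes such as Angpt2 in DSS + GAA libraries is unknown.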

Other observations

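Of the endogenous inhibitors of angiogenesis, Vash1 met the filter through the DSS libraries alone, so its direction was fixed. The other 9 fell in DSS + GAA colon, and with Vash1 counted 6, 4 and 4 fell under TMM scaling, quantile normalization and median centring. Thbs1, the matrix protein thrombospondin-1, was at 84.6, 48.4, 17.7 and 21.8 TPM in DSS + GAA libraries, against 700, 639, 402 and 144 TPM in DSS libraries (-3.46 ± 0.59 SE, limma adjusted p = 0.00611). Adamts1, a secreted protease that binds VEGF-A, was at 26.6, 14.2, 5.46 and 10.9 TPM in DSS + GAA libraries, against 317, 219, 124 and 61.2 TPM in DSS libraries (-3.51 ± 0.55 SE, limma adjusted p = 0.00533). Both groups were separate for both genes, and both passed under every alternative. With DSS replicate 1 left out, which also leaves Vash1 untested, 4 of the inhibitors fell, and 6 with DSS replicate 2 or DSS + GAA replicate 4 left out.

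Of 16 genes listed for hypoxia, 8 fell and 8 did not pass (median -0.54), where 28.2% of all tested genes fell. Under the 3 scalings 3, 6 and 3 fell, where 12.1%, 11.3% and 9.20% of all tested genes did. The 8 include Hif1a, the hypoxia factor itself (-0.54, limma adjusted p = 0.0424), which passed in only 7 of 18 alternatives. Car9, a carbonic anhydrase, was at 49.7, 52.8, 49.2 and 58.7 TPM in DSS + GAA libraries, against 98.2, 137, 106 and 90.4 TPM in DSS libraries (-1.01 ± 0.14 SE, limma adjusted p = 0.00510). Of the hypoxia genes 3 fell when DSS replicate 1 was left out, 4 when DSS + GAA replicate 2 was, and 5 when DSS + GAA replicate 4 or DSS replicate 2 was. Among 4 tested platelet genes, Pf4 averaged 12.9 ± 4.57 TPM in DSS + GAA and 65.5 ± 29.8 TPM in DSS (SD, n = 4 each; -2.20, limma adjusted p = 0.00554). Itga2b and Ppbp met the filter through the DSS libraries alone, so no other direction was open to them, and neither is tested once a DSS library is left out. Gp1bb, a subunit of the platelet receptor for von Willebrand factor, rose, with 38.4 ± 1.99 TPM in DSS + GAA and 22.9 ± 4.28 TPM in DSS (SD, n = 4 each; 0.73, limma adjusted p = 0.00772). Gp1ba, Gp6, Gp9 and Treml1 were too low to test, and Gp9 and Treml1 were listed at 0 in some libraries. Gp1ba averaged 0.15 TPM in DSS + GAA and 0.60 TPM in DSS libraries, and Gp9 averaged 0.047 and 1.25 TPM. Treml1 was also lower in DSS + GAA, whereas the mean of Gp6 was higher. Whether the Gp1bb reads come from platelets was not tested.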
